A study of Mus musculus with 18 samples.

Results

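The probes described here are the array features whose signal fell, or rose, in all 3 mouse embryonic stem (ES) cell lines of the study between culture with leukaemia inhibitory factor (LIF) and 48 h after its withdrawal. They were chosen by their measured values: a change of at least 0.8 on the log2 scale, of one sign, in each of the lines Oct4VP2, Oct4 and ZHBTc4, between the mean of the 2 arrays with LIF and the mean of the 2 arrays at 48 h in the deposited value table. Of the 25030 probes in that table, 662 met the rule, 229 of them falling and 433 rising. The files do not pair probes with genes, so the members are described as probes, by their values and, for 4 of them, by sequence.

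ZHBTc4 is an ES cell line of strain 129/Ola in which the endogenous copies of the gene for Oct4 are disrupted and a transgene that tetracycline switches off supplies Oct4. The Oct4VP2 cells were derived from it by electroporation of an Oct4 fused with VP16, a strong viral activation domain (written oct4-vp16 or moct4-vp16), and the Oct4 cells by electroporation of moct4 itself, both by random integration. Oct4VP2 cells were plated at 250000 cells per flask, and Oct4 and ZHBTc4 cells at 200000, always with LIF. RNA was taken from each line 24 h after plating with LIF, or 48 h or 120 h after a change to medium without LIF made 24 h after plating. Each of these 9 groups has 2 arrays, and per the series description the replicates are independent clones. The p values measure the spread between arrays of a group, pooled over the groups. In ZHBTc4 at 48 h and at 120 h the 2 arrays were on different slides and in different scan sessions. Clone, slide and session are therefore mixed in that spread. In the other groups the 2 arrays shared a slide, so a difference between slides is not in their spread. Tetracycline and puromycin are given for all Oct4VP2 cultures and for the Oct4 cultures without LIF. The labels of the Oct4 cultures with LIF name clones (4) and (5), call the modification a knock-in and mention neither drug, and those of ZHBTc4 do not mention tetracycline. LIF and time since plating changed together, so their parts in any value below cannot be told apart. In the Oct4 line the labels for drugs and modification also differ with LIF, so these cannot be told apart from LIF there. The rule uses that line for every member.

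LIF binds a receptor made of LIFR and gp130 (Il6st), which activates JAK kinases and the transcription factor STAT3. In mouse ES cells STAT3 sustains transcription factors of the undifferentiated state such as Klf4 and Tfcp2l1 and induces the feedback inhibitor Socs3, and cells without LIF differentiate. Oct4 (Pou5f1) is a transcription factor that the undifferentiated state requires. Which members belong to these genes was not analysed here, and the identity of the cells could not be checked against marker genes.

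To show what was measured, the sequences of the 2 falling and the 2 rising probes whose smallest 48 h change over the 3 lines was largest are given 5′ to 3′ from the scanner files. Capitals mark the motif ATTTA, which was searched as written in the probe together with AATAAA.
Z00023052-1 (falling): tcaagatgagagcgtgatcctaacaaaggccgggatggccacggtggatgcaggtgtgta
Z00005819-1 (falling): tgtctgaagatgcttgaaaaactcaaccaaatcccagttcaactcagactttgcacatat
Z00025827-1 (rising): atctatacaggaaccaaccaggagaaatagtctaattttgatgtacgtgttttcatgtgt
Z00074539-1 (rising): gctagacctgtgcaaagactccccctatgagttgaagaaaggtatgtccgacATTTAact

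Each probe has 60 bases. The files list no position for any of them, so chromosome, exon and strand are not given. Among the falling members the median GC content was 43.3% (quartiles 38.3% and 46.7%), the same median as over all 25030 probes (43.3%, quartiles 36.7% and 48.3%). Among the rising members it was 40.0% (quartiles 35.0% and 45.0%). ATTTA was in 8.73% of the falling probes, 9.47% of the rising probes and 7.73% of all probes, and AATAAA in 9.61%, 10.6% and 7.9%. A match says only that these letters are in the 60 bases. Rising members were spread unevenly over GC content, with 159 among the 6264 probes of the lowest quartile and 44 among the 5469 of the highest, while falling members numbered 46 and 50. The median 48 h change of all probes lay between -0.08 and 0.08 in each quartile and line. The part of base composition in the choice of rising members was not tested.

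Probes of the same transcript are not separate observations. Among the 662 members, 3 shared at least 20 bases with another member. Probes of the same transcript that do not overlap are not found this way. The 3 overlapping members differ from each other at single bases within the overlap, and whether they report the same transcript was not tested. All 3 were falling probes, and they had nearly the same values: at 48 h their changes were between -0.9 and -1.15 in Oct4VP2, between -1.21 and -1.4 in Oct4 and between -1.54 and -1.59 in ZHBTc4. By 120 h they lay lower still, at between -2.25 and -2.35 in Oct4VP2, -3.16 and -3.27 in Oct4 and -2.48 and -2.66 in ZHBTc4.

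A few members could be set beside the gene-start windows of RefSeq (GRCm38.p6, 250 bases before to 50 after each start). A run of at least 25 identical bases was found for 4 of the 662 members, and in all 4 it lay on the strand opposite to the gene of the window, so 0 matched the gene's own strand and no gene name was given. One rising probe matched with 60 bases in the window of 4930538E20Rik at chr11:24172732-24173031. Its change at 48 h was 2.9 in Oct4VP2, 1.4 in Oct4 and 1.74 in ZHBTc4, and at 120 h it was 2.01, -1.06 and -1.61. A second rising probe matched with 60 bases in the window of Gm32710 at chr9:10904537-10904836, with 48 h changes of 1.92, 1.64 and 1.58 and 120 h changes of 2.16, -0.31 and 0.51 in the same order of lines. At 120 h both lay more than 2-fold above the level with LIF in Oct4VP2 and not in the other lines. The rising probe that matched 34 bases in the window of Gm26793 at chr7:144899639-144899938 had 48 h changes of 2.34, 1.33 and 0.86 and 120 h changes of 1.94, -0.99 and -0.57. The falling probe matched 54 bases in the window of Plet1os at chr9:50504756-50505055, with 48 h changes of -1.46, -1.35 and -0.98 and 120 h changes of -1.57, 0.73 and 0.13. It thus lay low at 120 h in Oct4VP2 and near or above its level with LIF in Oct4 and ZHBTc4. These 4 are given because they matched, and whether they also match elsewhere was not tested, since no genome was used.

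The values of the 24 h and 48 h arrays chose the members, so their size is a description and carries no test. The median 48 h change of the falling members was -1.25 in Oct4VP2 (range -4.6 to -0.8), -1.42 in Oct4 (-5.34 to -0.8) and -1.67 in ZHBTc4 (-4.49 to -0.8). For the rising members it was 1.35 in Oct4VP2 (range 0.8 to 4.33), 1.52 in Oct4 (0.8 to 5.64) and 1.75 in ZHBTc4 (0.8 to 4.88). Over all probes of the table the medians lay between -0.04 and 0.02. ZHBTc4 had the largest of the 3 changes for 109 of the 229 falling and 217 of the 433 rising members, and Oct4VP2 had the smallest for 114 and 197.

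Taken alone, the lines had 1562 (Oct4VP2), 2412 (Oct4) and 2124 (ZHBTc4) probes that fell by at least the threshold and 1811, 2543 and 2407 that rose by it. At the edge of the rule, the last falling probe inside had changes of -0.8003, -0.8132 and -1.087 in Oct4VP2, Oct4 and ZHBTc4, and the first outside -0.8989, -1.0753 and -0.7982. The last rising probe inside had 1.0168, 0.8452 and 0.8001, and the first outside 1.7986, 0.7986 and 1.665. Both probes outside the edge missed it in 1 line only.

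The arrays of the 2 states were apart for most members. All 48 h arrays lay below all 24 h arrays of the same line, in each of the 3 lines, for 197 of 229 falling members, and above them for 383 of 433 rising members. Among all 25030 probes, 4.81% and 6.58% met these conditions, but since the rule used the same arrays nothing is read from the difference. The typical gap between replicates was smaller than the changes: among rising members the median gap between the 2 arrays of a group was 0.5 with LIF and 0.41 at 48 h in Oct4VP2, 0.74 and 0.34 in Oct4, and 0.2 and 0.38 in ZHBTc4. Oct4 with LIF, whose arrays are of clones (4) and (5), had the widest gap.

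**Figure D1:**
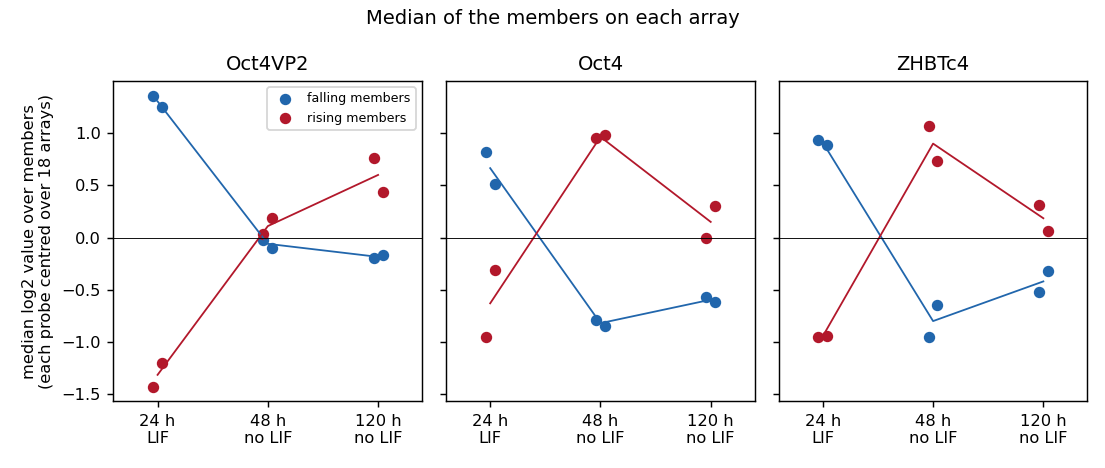
Median over the 229 falling (blue) and 433 rising (red) members on each of the 18 arrays, in log2 units of the value table after each probe was centred on its mean over the arrays; each point is an array, lines join the group means, and the horizontal axis gives time and LIF. In Oct4 and ZHBTc4 the rising members stand highest at 48 h, while in Oct4VP2 both arrays at 120 h (0.76 and 0.44) lie above those at 48 h (0.03 and 0.19).

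With each probe centred on its mean over the 18 arrays, the arrays with LIF stood apart from the others in every line. The median of the falling members was 1.36 and 1.25 on the 2 Oct4VP2 arrays with LIF, 0.82 and 0.51 on those of Oct4, and 0.93 and 0.89 on those of ZHBTc4. At 48 h it was -0.02 and -0.1 in Oct4VP2, -0.79 and -0.85 in Oct4, and -0.95 and -0.65 in ZHBTc4. The Oct4VP2 arrays at 48 h therefore lay nearer the overall mean than those of the other lines, but on the side opposite to the cultures with LIF. The medians of the rising members mirrored this, with -1.43 and -1.2 in Oct4VP2, -0.95 and -0.31 in Oct4 and -0.95 and -0.94 in ZHBTc4 with LIF, and 0.03 and 0.19, 0.95 and 0.98, and 1.07 and 0.73 at 48 h.

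The same order of lines shows in the differences between them at one time, which are descriptions because the rule used these arrays. With LIF the median difference of Oct4VP2 minus Oct4 was 0.54 for falling and -0.72 for rising members. At 48 h the falling members were still higher in Oct4VP2, by 0.74 over Oct4 and 0.61 over ZHBTc4, and the rising members differed by -0.88 and -0.75. Of 433 rising members, 195 were at least 2-fold lower in Oct4VP2 than in Oct4 at 48 h and 17 at least 2-fold higher. Over all 25030 probes 1934 were 2-fold lower and 1849 2-fold higher. Since the rule used these arrays, nothing is read from the difference. Oct4 and ZHBTc4 at 48 h differed by a median of -0.06 for falling and 0.11 for rising members.

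Sample and reference channel were also read apart. With the channels taken alone after background correction, the median 48 h change in Cy3, the sample, was -0.9 in Oct4VP2, -0.86 in Oct4 and -0.95 in ZHBTc4 for falling members and 0.51, 0.75 and 0.83 for rising members. In Cy5, the reference pooled from mouse cell lines, all 6 medians lay between -0.05 and 0.05. For 4 falling and 7 rising members the Cy5 change itself reached 0.8 in size in at least 1 line. These sizes are smaller than in the value table, and this background correction adds an offset of 50 to the signals. As log2 ratios after that correction and loess normalisation the medians were -0.82, -0.84 and -0.95 for falling and 0.52, 0.72 and 0.8 for rising members, and 101 falling and 120 rising probes would meet the rule on those values, of which 90 and 103 are members here.

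Scan session and line are partly joined. All Oct4VP2 arrays at 24 h and 48 h shared slide 1, the 48 h and 24 h arrays of Oct4 were scanned in different sessions, and the ZHBTc4 arrays at 48 h were 1 in each session with both 24 h arrays in session 2. For the ZHBTc4 array at 48 h in the same session as the 24 h arrays the median change was -1.51 for falling and 1.6 for rising members, with 229 of 229 and 430 of 433 of the rule's sign. For the array in the other session the medians were -1.89 and 1.95. For Oct4 no value within a session exists, so session and LIF cannot be told apart in that line.

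Many rising members were dim with LIF, which limits what their size means. Both arrays with LIF were well above background in Cy3 for 257 of 433 rising members in Oct4VP2 (59.4%), 278 in Oct4 (64.2%) and 251 in ZHBTc4. At 48 h the numbers were 357 (82.4%), 420 (97.0%) and 375 (86.6%). Over all probes the share was between 64.8% and 74.3% in these groups. Falling members went the other way, from 194 of 229 (84.7%), 177 (77.3%) and 186 (81.2%) with LIF to 170 (74.2%), 165 (72.1%) and 150 (65.5%) at 48 h. Detection is a reading of the same arrays that chose the members, and is given as a description. On all 18 arrays 129 falling and 200 rising members were well above background, 8 and 2 on none, and no member was saturated on any array (0). Over all 25030 probes 14911 were well above background on all 18 arrays and 3466 on none.

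A small number of members crossed the detection limit completely. There were 12 rising members that were not well above background on any array with LIF, in any line, and were well above it on all 48 h arrays. Over all 25030 probes 14 did so, these 12 among them. At 120 h, on arrays the rule did not use, 9 of these 12 were well above background on both Oct4VP2 arrays, 3 on both Oct4 arrays and 4 on both ZHBTc4 arrays. On neither array of the group were they well above background in 0, 7 and 6 cases. Only 2 falling members went from well above background on all arrays with LIF to none at 48 h, and at 120 h both were below it on both arrays of Oct4 and of ZHBTc4. In Oct4VP2 neither of these 2 was on the same side of the limit on both arrays.

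**Figure D2:**
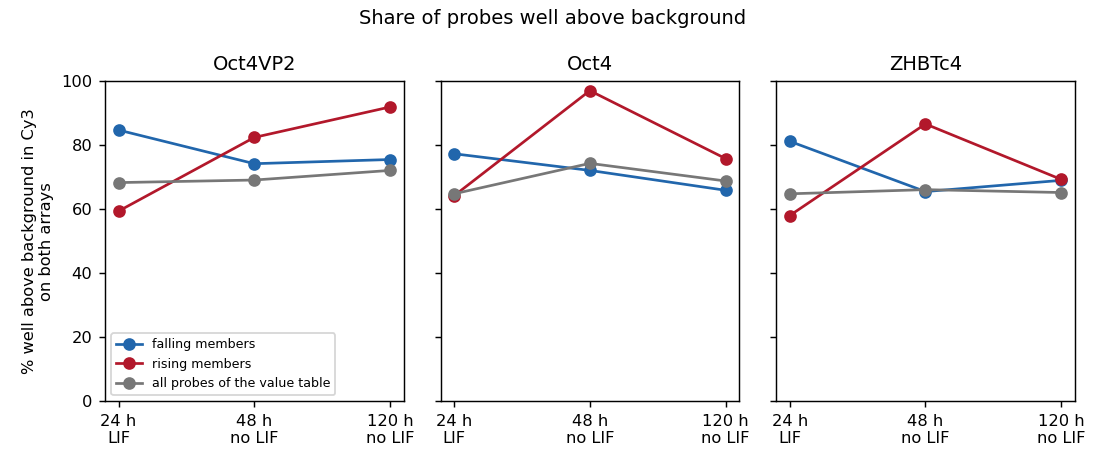
Percentage of the falling (blue) and rising (red) members and of all 25030 probes of the value table (grey) whose Cy3 signal was well above background on each array of a group, by time and LIF. The share of rising members increases from 59.4% with LIF to 91.9% at 120 h in Oct4VP2, whereas in Oct4 and ZHBTc4 it is highest at 48 h (97.0% and 86.6%) and lower at 120 h (75.8% and 69.3%).

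In the value table most falling members at 120 h were still at least 2-fold below their level with LIF in each line. Most rising members were there at least 2-fold above it in Oct4VP2 and ZHBTc4, and fewer in Oct4. On the background-corrected values neither statement holds, as the medians at the end of this paragraph show. Changes from the level with LIF share their 24 h arrays with the rule and are given without a test. They start from levels that differ between lines. In the value table the median of Oct4VP2 minus Oct4 for falling members was 0.54 with LIF and 0.36 at 120 h. For rising members it was -0.72 and 0.38. Against ZHBTc4 these medians were 0.3 and 0.11, and -0.42 and 0.36. The median change from the level with LIF was -1.52 in Oct4VP2, -1.22 in Oct4 and -1.33 in ZHBTc4 for falling members, and 1.91, 0.7 and 1.1 for rising members. From 48 h to 120 h the median rising member moved by 0.49 in Oct4VP2 and by -0.8 in Oct4 and -0.59 in ZHBTc4, and the median falling member by -0.17, 0.28 and 0.39. With background correction and loess the 120 h medians were -0.85, -0.38 and -0.49 for falling members and 0.76, 0.24 and 0.33 for rising members, in the same order of lines. These medians are all under 2-fold, so on that scale most members were not 2-fold from their level with LIF in any line.

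Counted at 2-fold in the value table, 169 of 229 falling members in Oct4VP2 were lower at 120 h than with LIF, where 6.48% of all probes were. In Oct4 the number was 128 (all probes 13.1%) and in ZHBTc4 139 (11.3%). Of the 433 rising members 364 were at least 2-fold higher at 120 h in Oct4VP2 (all probes 9.22%), 189 in Oct4 (12.6%) and 227 in ZHBTc4 (13.5%). Because the rule already fixes the 24 h side of these differences, nothing is read from their distance to the shares of all probes. Some members lay at least 2-fold on the other side of their level with LIF at 120 h. Rising members below it numbered 51 in Oct4 (11.8%), 48 in ZHBTc4 (11.1%) and 0 in Oct4VP2. Over all probes 13.1%, 11.3% and 6.48% were 2-fold lower in these lines. Falling members above it numbered 2 in Oct4VP2 (0.873%), 2 in Oct4 (0.873%) and 12 in ZHBTc4 (5.24%), beside 9.22%, 12.6% and 13.5% of all probes. At 120 h 313 of the 433 rising members lay further from the level with LIF than at 48 h in Oct4VP2, against 131 in Oct4 and 146 in ZHBTc4. No share over all probes is given beside these last counts, so nothing is read from them.

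The members fall into classes by where they kept the 2-fold change in the value table. In all 3 lines it was kept by 86 falling members (37.6%) and by 136 rising members (31.4%). Over all probes 1.49% were 2-fold lower and 2.69% 2-fold higher at 120 h in all 3 lines. A 2-fold change in Oct4VP2 and in neither of the other lines was seen for 41 falling and 130 rising members (17.9% and 30.0%), beside 3.65% of all probes lower and 4.53% higher. The reverse, in Oct4 and ZHBTc4 and not in Oct4VP2, was seen for 17 falling and 14 rising members (7.42% and 3.23%), beside 4.74% and 4.61% of all probes. A further 60 rising members kept it in Oct4VP2 and ZHBTc4 with Oct4 between the 2-fold limits (all probes 1.16%), and 31 in Oct4VP2 and Oct4 with ZHBTc4 between them (0.663%). Of the rising members 11 were 2-fold higher than with LIF in Oct4VP2 and 2-fold lower in Oct4 and in ZHBTc4 (all probes 0.336%). As above, the rule fixes the 24 h side of these classes, and nothing is read from their distance to the shares of all probes. Whether the changes of the lines differ was not tested in these classes.

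**Figure D3:**
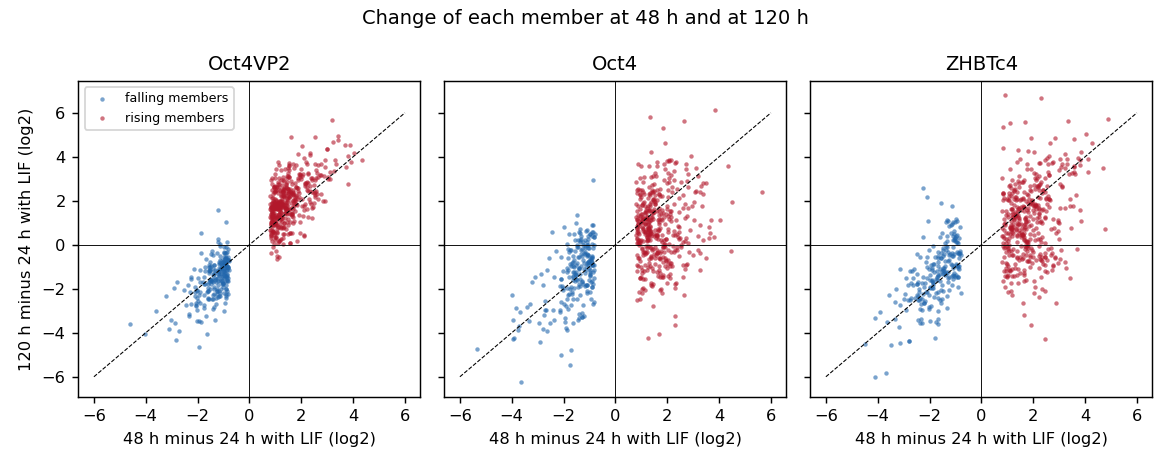
Change of each member from its level with LIF at 48 h (horizontal) and at 120 h (vertical) in the 3 lines, in log2 units of the value table; each point is a probe, falling members in blue and rising in red, and the dashed line marks equal changes. Rising members gather near and above the dashed line in Oct4VP2, and in Oct4 and ZHBTc4 they spread from 6.13 and 6.79 down to -4.25 and -4.28.

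The level at 120 h was compared between lines with limma, on arrays that the rule did not use. At 120 h both Oct4VP2 arrays were on slide 2 and both Oct4 arrays on slide 3. ZHBTc4 had an array on slide 3 and another on slide 5. Slide and line therefore cannot be told apart in the comparisons with Oct4VP2. A probe was called where the Benjamini-Hochberg adjusted p over all probes tested was under 0.05 and the difference at least 2-fold. The filter on dim probes, which asks that at least 1 of the 9 groups has all its arrays well above background, kept 202 of the 229 falling and 428 of the 433 rising members. A member can pass this filter through a 24 h or 48 h group, which the rule used. Between Oct4VP2 and Oct4, 33 falling members were called higher and 19 lower in Oct4VP2, and 41 rising members higher and 47 lower. Over all probes tested 5.15% were called higher and 5.02% lower. The 31727 probes tested include probes outside the value table, which could not be members. Of the value table, 19438 probes passed the filter. Between Oct4VP2 and ZHBTc4, 30 falling members were called higher and 25 lower in Oct4VP2, and 51 rising members higher and 54 lower, beside 4.62% and 5.33% over all probes. Between Oct4 and ZHBTc4, 7 falling members were called higher and 20 lower in Oct4, and 26 rising members higher and 40 lower, beside 1.63% and 2.31%. The comparisons share arrays, so they are not independent of each other. Oct4VP2 cells were plated at 250000 per flask and the other lines at 200000. Tetracycline is given for the Oct4VP2 and Oct4 cultures without LIF and is not mentioned for ZHBTc4. Plating and drug labels cannot be told apart from line where they differ.

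Read against the shares over all probes, members of both kinds were called in both directions in each comparison. For instance, 16.3% of the tested falling members were called higher in Oct4VP2 than in Oct4 and 9.41% lower, and of the tested rising members 9.58% were called higher and 11% lower. On these background-corrected values the median differences of the members were small: 0.05 for falling and 0.13 for rising members in Oct4VP2 against Oct4, 0.06 and 0.11 against ZHBTc4, and -0.01 and 0.03 in Oct4 against ZHBTc4, beside -0.02, 0 and 0.02 over all probes tested. The called differences ran from -3.57 to 3.96 in Oct4VP2 against Oct4, from -4.42 to 4.18 in Oct4VP2 against ZHBTc4 and from -5.4 to 2.74 in Oct4 against ZHBTc4. Among the called members, in the 3 comparisons in this order, 7 of 140, 7 of 160 and 2 of 93 had 1 line that was not well above background on either array, so that their difference is a bound.

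The split of the calls depended on the signals used. With the Feature Extraction processed signals, median-centred, 125 rising members were called higher in Oct4VP2 than in Oct4 and 49 lower, and 143 higher and 47 lower than in ZHBTc4. For falling members the numbers were 65 higher and 28 lower against Oct4, and 55 and 28 against ZHBTc4. Between Oct4 and ZHBTc4 those signals gave 19 falling members higher and 29 lower, and 72 rising members higher and 47 lower. The median of all probes itself moved to 0.237 in Oct4VP2 against ZHBTc4 and 0.235 in Oct4 against ZHBTc4 with those signals. In the value table, where that shift is 0.039 and 0.029, the rising members gave 128 higher and 55 lower in Oct4VP2 against Oct4, 133 and 59 against ZHBTc4, and 57 and 60 in Oct4 against ZHBTc4. The falling members gave 64 and 29, 51 and 38, and 16 and 34. Rising members were thus called more often higher than lower in Oct4VP2 on the processed signals and on the value table, which holds the same signals. On the background-corrected values 41 rising members were called higher and 47 lower against Oct4. Which side was larger depended on single Oct4VP2 arrays, for these members and over all probes tested. The median difference of the rising members was 0.13, and it was 0.07 without replicate 1 and 0.17 without replicate 2 of Oct4VP2. Over all probes tested it was -0.024, -0.015 and -0.031.

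Over all probes tested, calls on these values were also more often higher than lower in Oct4VP2. With the processed signals 9.92% of all probes tested were called higher and 8.34% lower in Oct4VP2 against Oct4, 12.6% and 5.89% in Oct4VP2 against ZHBTc4, and 6.47% and 3.35% in Oct4 against ZHBTc4. With the value table the shares were 11.5% and 9.43%, 10.6% and 8.67%, and 4.76% and 5.14%, over the 19438 probes of that table that were tested. The median differences of the members with the processed signals were 0.49 for falling and 0.43 for rising members in Oct4VP2 against Oct4 (all probes -0.011), 0.36 and 0.58 in Oct4VP2 against ZHBTc4 (0.237), and 0.04 and 0.2 in Oct4 against ZHBTc4 (0.235). With the value table they were 0.48 and 0.41 (-0.007), 0.15 and 0.37 (0.039), and -0.15 and 0.02 (0.029).

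**Figure D4:**
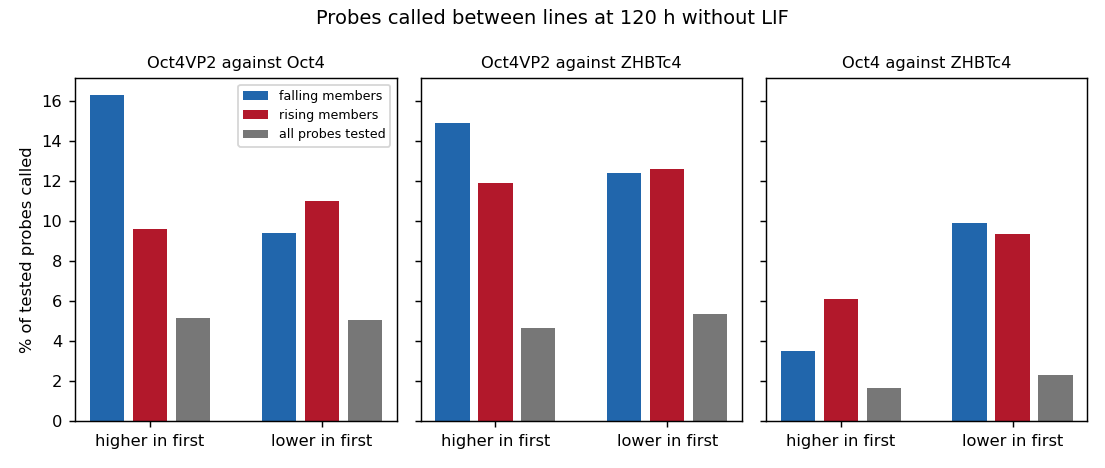
Percentage of the probes tested that were called between lines at 120 h without LIF (limma, adjusted p under 0.05 and at least 2-fold), for falling members (blue), rising members (red) and all probes tested (grey); the left bars of each panel are probes higher, and the right bars lower, in the line named first. In Oct4VP2 against Oct4, 16.3% of the tested falling members are called higher, beside 5.15% of all probes tested, which include probes outside the value table.

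The members singled out by the rule for identifiers differed in what they did after 48 h. Values are the background-corrected and loess-normalised log2 ratios of sample over reference, and adjusted p values are from limma with Benjamini-Hochberg adjustment over all probes tested. The falling probe Z00005819-1 read 0.3 and 0.22 in Oct4VP2, 0.45 and 0.1 in Oct4, and 0.35 and 0.46 in ZHBTc4 with LIF. At 48 h it read -3.61 and -3.24, -2.91 and -3.13, and -2.99 and -2.67, and at 120 h -3.11 and -2.48, -1.24 and -1.64, and -0.75 and -0.59. With LIF the arrays of the 3 lines overlapped. Both Oct4VP2 arrays lay below all arrays of the other lines at 48 h and, by a wider gap, at 120 h. At 120 h Oct4VP2 was lower than both: Oct4VP2 minus Oct4 was -1.35 ± 0.21 (SE, adjusted p = 0.000302) and Oct4VP2 minus ZHBTc4 -2.12 ± 0.21 (adjusted p = 1.04e-05), and Oct4 minus ZHBTc4 was -0.77 ± 0.21 (adjusted p = 0.0242), under 2-fold. It was well above background on all 18 arrays.

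The rising probe Z00074539-1 read -1.64 and -1.65 in Oct4VP2, -1.54 and -0.54 in Oct4, and -1.16 and -1.18 in ZHBTc4 with LIF. At 48 h it read 0.45 and 0.81, 1.56 and 1.81, and 1.15 and 1.26, and at 120 h 0.79 and 0.6, -1.28 and -0.98, and -0.65 and -0.06. Oct4VP2 kept the level of 48 h, whereas the Oct4 arrays at 120 h lay within the range of its arrays with LIF. At 120 h Oct4VP2 was higher than Oct4 by 1.82 ± 0.27 (SE, adjusted p = 0.000186, limma) and higher than ZHBTc4 by 1.05 ± 0.27 (adjusted p = 0.00842). The second of these fell under 2-fold, to 0.96 and 0.76, without replicate 1 of Oct4VP2 and without replicate 1 of ZHBTc4 at 120 h. Oct4 minus ZHBTc4 was -0.77 ± 0.27 (adjusted p = 0.0662) and was not called. It was called with the value table (-1.32) and without replicate 1 of ZHBTc4 (-1.07), and was -0.47 without replicate 2 of ZHBTc4.

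The rising probe Z00025827-1 read -0.29 and -0.14 in Oct4VP2, -0.41 and 0.05 in Oct4, and -0.08 and -0.05 in ZHBTc4 with LIF. The 2 Oct4VP2 arrays and replicate 1 of Oct4 were not well above background there. At 48 h it read 0.97 and 1.13, 1.86 and 1.99, and 2.11 and 1.91, and at 120 h 1.47 and 1.18, 0.73 and 1.12, and 1.83 and 2.12. In no line did the arrays without LIF overlap those with LIF. In Oct4VP2 its Cy3 signal at 48 h was at least 2.66-fold higher than with LIF, the dim group being counted at the higher of its own signal and the lowest signal well above background on the array. At 120 h Oct4 was the lower of the pair, with Oct4 minus ZHBTc4 at -1.05 ± 0.17 (SE, adjusted p = 0.00123, limma), and the difference fell under 2-fold without replicate 1 of Oct4 (-0.86), without replicate 2 of ZHBTc4 (-0.91), and with the value table (-0.74). Oct4VP2 minus Oct4 was 0.40 ± 0.17 (adjusted p = 0.0875), and Oct4VP2 minus ZHBTc4 -0.65 ± 0.17 (adjusted p = 0.0113), under 2-fold.

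The falling probe Z00023052-1 read 1.34 and 1.46 in Oct4VP2, -0.15 and -0.97 in Oct4, and 0.02 and 0.07 in ZHBTc4 with LIF. At 48 h it read -1.45 and -1.24, -1.4 and -1.88, and -1.54 and -1.82, and at 120 h -1.44 and -1.25, -1.14 and -1.41, and -1.39 and -1.8. With LIF the lines were apart, with Oct4VP2 highest, and without LIF all 12 arrays lay between -1.88 and -1.14. On 5 arrays it was not well above background: replicate 2 of Oct4 and both of ZHBTc4 at 48 h, and both of Oct4 at 120 h. Its Cy3 signal with LIF was at least 3.75-fold higher than at 48 h in ZHBTc4 and at least 2.27-fold higher than at 120 h in Oct4. At 120 h Oct4VP2 minus Oct4 was -0.07 ± 0.24 (SE, adjusted p = 0.854, limma), with the Oct4 side only a bound, and with the processed signals the same difference was 2.27 and called. Oct4VP2 minus ZHBTc4 was 0.25 ± 0.24 (adjusted p = 0.482), and 1.28 with the processed signals. Oct4 minus ZHBTc4 was 0.32 ± 0.24 (adjusted p = 0.414), also with Oct4 as a bound, and had the other sign with the processed signals (-0.99) and the value table (-1.18), without being called there.

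**Figure D5:**
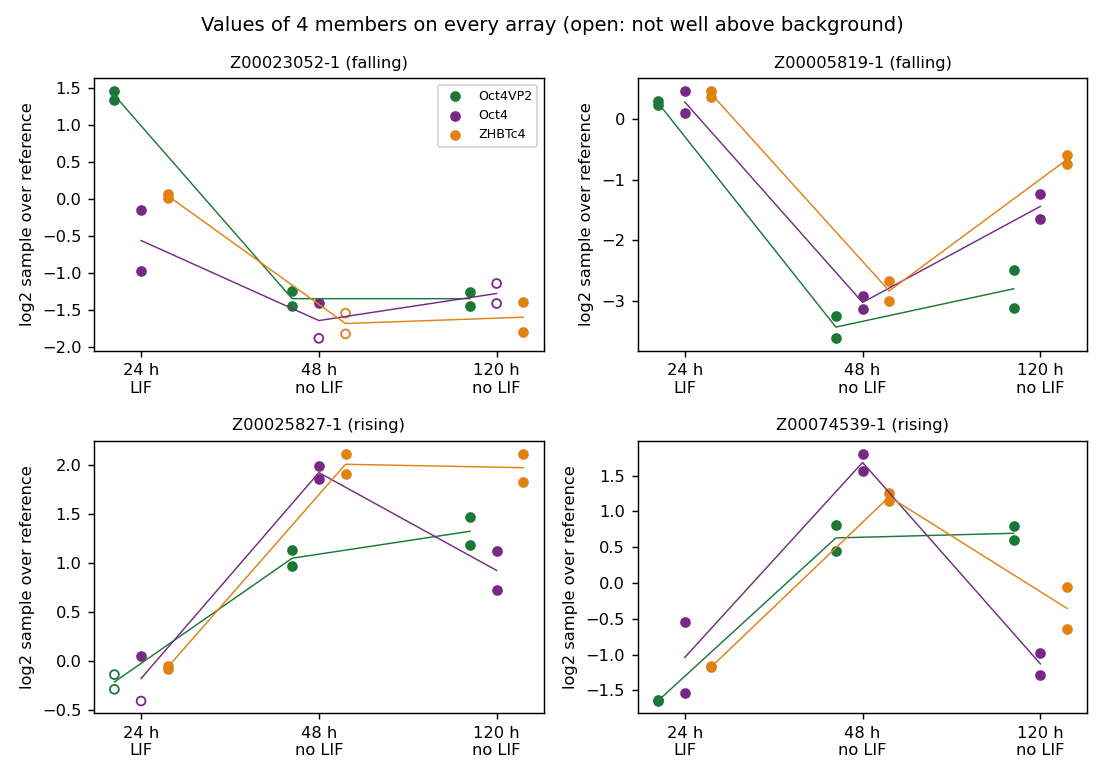
Background-corrected and loess-normalised log2 ratio (sample over reference) on every array for the 2 falling and 2 rising probes given by sequence, by time and LIF; green is Oct4VP2, purple Oct4 and orange ZHBTc4, lines join group means, and open circles were not well above background. On these values the Oct4VP2 arrays at 120 h lie apart from those of the other lines for Z00005819-1 and Z00074539-1, and not for Z00023052-1. In the value table Oct4VP2 minus Oct4 at 120 h is 2.25 for Z00023052-1.

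The members with the extreme differences at 120 h were singled out after their values were seen and are given without identifiers. The falling member highest in Oct4VP2 against both other lines read -2.92 and -2.75 in Oct4VP2, -4.35 and -5.5 in Oct4, and -6.47 and -6.29 in ZHBTc4 with LIF. At 120 h it read -5.21 and -4.51, -8.18 and -9.47, and -9.01 and -9.08. Oct4VP2 lay above the other lines with and without LIF, by 3.96 ± 0.45 over Oct4 (SE, limma adjusted p = 2.66e-05) and 4.18 ± 0.45 over ZHBTc4 (adjusted p = 1.83e-05) at 120 h. Its fall to 48 h was -2.08, -3.91 and -2.28 in Oct4VP2, Oct4 and ZHBTc4 in the value table.

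The rising member lowest in Oct4VP2 against Oct4 read between -4.49 and -3.92 on all 6 arrays with LIF. At 48 h it read -3.76 and -3.72 in Oct4VP2, -2.35 and -2.26 in Oct4 and -1.29 and -1.94 in ZHBTc4, and at 120 h -2.8 and -3.16, 0.26 and 0.92, and -0.54 and -0.92. All lines moved up, and Oct4VP2 least. At 120 h the difference Oct4VP2 minus Oct4 was -3.57 ± 0.24 (SE, limma adjusted p = 7.09e-07) and Oct4VP2 minus ZHBTc4 -2.25 ± 0.24 (adjusted p = 1.85e-05), and Oct4 was higher than ZHBTc4 by 1.32 ± 0.24 (adjusted p = 0.00246), which was 0.99 without replicate 2 of Oct4.

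The rising member lowest in Oct4VP2 against ZHBTc4 read between -6.53 and -5.95 on all 6 arrays with LIF and between -5.45 and -3.68 at 48 h. At 120 h it read -5.42 and -5.29 in Oct4VP2, -6.61 and -6.06 in Oct4, and -0.8 and -1.07 in ZHBTc4. ZHBTc4 thus stood far above the other lines, while the Oct4 arrays lay at or below the lower of their arrays with LIF. Oct4VP2 minus ZHBTc4 was -4.42 ± 0.23 (SE, limma adjusted p = 1.03e-07) and Oct4 minus ZHBTc4 -5.40 ± 0.23 (adjusted p = 3.76e-08).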

How the data were processed

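Cy3-labelled sample RNA and Cy5-labelled reference RNA, pooled from mouse cell lines, were hybridised to 18 arrays of 2 colours. Per the file headers, the authors' scanner output comes from Agilent Feature Extraction 9.5.1.1 and gives an intensity for each spot and channel, background and outlier flags, and a log10 ratio of reference over sample. The deposited value table holds log10 values of 25030 probes. It was multiplied by 3.3219 to give log2, and 100% of its values agreed, after centring each probe, with the sample over reference ratio of the processed signals (largest difference 0.000637). Scale and direction are therefore known, and the constant of each probe, which sets column medians of 7.72 to 7.84, is unknown. Aligned positions and a genome build for the probes are not given in the sources used here. Other values deposited by the authors in the scanner files (flags) were used to drop outlier spots.

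Background was corrected with normexp (offset 50) and arrays normalised by loess in limma 3.58.1 (R 4.3.3), which gave 42006 probes. The model had a mean for each of 9 groups over all 18 arrays, with eBayes (9 residual and 3.69 prior degrees of freedom) and Benjamini-Hochberg adjustment over 31727 probes (31728 for Oct4 against ZHBTc4, since 1 probe lacked a value). It was tested on simulated data. The number of arrays limits the precision. Between 62.8% and 75.2% of probes were well above background in Cy3, and replicates correlated with r from 0.961 to 0.994. The files show 5 slides and 2 scan sessions. The lists of genes and markers were not analysed here because the probes have no names: 0 of the 662 member identifiers matched the RefSeq gene table. The rule for naming gave identifiers to the 2 falling and 2 rising members with the largest smallest change. The members, lists and tests were chosen with earlier results of these data known. Alternatives were other signals, thresholds, filters, blocks and left-out arrays.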

Additional observations from a re-analysis of the deposited data

Results flagged for a closer look

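Among the members described one by one, 1 rising member moved in opposite directions between lines by 120 h, with all 120 h arrays of a line on one side of its arrays with LIF. In Oct4 the margin was small, the higher array at 120 h reading -6.06 and the lower with LIF -6.058. It is the member lowest in Oct4VP2 against ZHBTc4 at 120 h. Its change from the level with LIF to 120 h was 1.15 in Oct4VP2 and 5.33 in ZHBTc4, and -0.33 in Oct4, on the background-corrected log2 scale. The difference of these changes between lines was not tested, and the 24 h arrays also chose the member. On the centred values that the authors deposited, at 120 h, 8 falling and 57 rising members were at least 2-fold above the level with LIF in 1 line and 2-fold below it in another. No share over all probes is given beside these counts, so nothing is read from them. Groups of 2 arrays allow no check for a single deviating array.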

How the results depend on the processing

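The cause of each move below was not tested except where it follows from the setting. The 229 falling and 433 rising members became 101 and 120 with normexp and loess values, 123 and 272 at a threshold of 1.0, and 129 and 200 among probes well above background on all 18 arrays (chosen after seeing the data). They were 235 and 424 with the Feature Extraction signals, and between 213 and 256 falling and 361 and 471 rising when 1 array was left out. Members called at 120 h numbered 140 (Oct4VP2 against Oct4), 160 (Oct4VP2 against ZHBTc4) and 93 (Oct4 against ZHBTc4). The Feature Extraction signals gave 267, 273 and 167 calls, values of the deposited table gave 276, 281 and 167, and dropping the minimum fold gave 285, 286 and 167. Leaving out 1 array gave 118 to 165, 135 to 168 and 71 to 100. Without replicate 2 of Oct4VP2, 29 rising members were called lower than in Oct4 (47 with it). Between Oct4 and ZHBTc4, without replicate 2 of ZHBTc4 the falling members called were 4 higher and 12 lower (7 and 20 with it), as in the first scan session alone (added after seeing the data), and without replicate 2 of Oct4 15 rising members were called higher (26 with it), 17 in that session. Leaving out the arrays just named also lowered the calls over all probes tested. Over all probes tested, 1633 higher and 1592 lower calls in Oct4VP2 against Oct4 became 3148 and 2647 with the Feature Extraction signals. Those signals and the value table turned Oct4VP2 against Oct4 for Z00023052-1 from -0.07 to 2.27 and 2.25. The replicate block left the calls at 140, 159 and 94. Same-numbered arrays deviated together (r over 0.1) in 8 of 36 pairs of groups (r from -0.25 to 0.7) and in 0 of those at 120 h (-0.19 to -0.011). Since most pairs did not, the numbers were not taken to pair the samples.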
